A study of Mus musculus with 42 samples.

Results

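The genes described here are 8 members of the Serpina family, of the 54532 genes in the table of read counts: Serpina12, Serpina6, Serpina7, Serpina10, Serpina11, Serpina3k, Serpina3m, and Serpina3n. They were chosen by gene name, and the choice was made with values of these data in view, because Serpina12 was much lower on the high-fat diet at ZT 0. Differences between the diets at ZT 0 are therefore given as a description, without a test. All 8 genes had a mean count of at least 25 and entered every test, among 13394 genes that did.

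Female C57BL/6 mice (C57BL/6NHsd in the study's methods), 3 weeks old at the start, were fed for 3 weeks with the AIN93G standard diet (AIN93G), in which soybean oil gave 16% of energy, or with a modified AIN93 high-fat diet (HFD), in which it gave 45%. The mice were not fasted, and poly(A) RNA of tissue labelled as liver was sequenced from 3 mice per diet at each of 7 time points, 4 h apart, from Zeitgeber time (ZT) 0, when lights went on, to ZT 24. The labels name no transgene or deletion. At ZT 12 they put 4 libraries in the dark phase and 2, AIN93G replicate 2 and HFD replicate 3, in the light phase, and the time points were used here, not the phases. This gave 42 libraries, with total counts from 14592481 to 21368409. Levels are given as counts per 1000000 counts of the library (CPM), and a level at or under 3 counts is treated as the floor, which covers counting error only.

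Not every library had the transcripts of liver. In 32 libraries, called liver libraries here, albumin (Alb) was between 66433.8 and 111995.1 CPM and the adipocyte hormone adiponectin (Adipoq) was between 0 and 5.01 CPM. In the other 10, Alb was between 18.7 and 81 CPM and Adipoq was between 1454.8 and 2984 CPM. These adipocyte-rich libraries were the 6 that AIN93G gave at ZT 16 and ZT 20, and 2 of the 3 that each diet gave at ZT 24. All 10 hepatocyte markers had a higher median in the liver libraries and all 10 adipocyte markers had a higher median in the adipocyte-rich libraries. At ZT 16 and ZT 20 the diet and the content of the library therefore cannot be told apart, and fewer cells of a type cannot be told apart from less RNA per cell in any of these samples.

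Serpins are secreted or intracellular proteins that mostly inhibit serine proteases. The protease cuts an exposed loop of the serpin, the serpin changes its shape, and both stay locked together. Some members have lost this activity and carry hormones instead. Hepatocytes make most clade A serpins of plasma, and the mouse genome holds many copies of genes that are single in humans.

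Serpina12 encodes vaspin, a serpin first described in visceral adipose tissue that inhibits kallikrein 7. Serpina6 encodes corticosteroid-binding globulin and Serpina7 encodes thyroxine-binding globulin, the carriers of glucocorticoids and thyroid hormone in plasma. Serpina10 encodes the protein Z-dependent protease inhibitor, which acts on coagulation factor Xa. Serpina3k, Serpina3m, and Serpina3n belong to the mouse copies of the antichymotrypsin gene, of which Serpina3n is an acute phase gene.

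Chromosome 12 holds 7 of the 8 genes (between 103614786 and 104414329, mm10), where the table lists 28 Serpina genes in 799.5 kb. Serpina12 (chromosome 12, 104028769 to 104044443, minus strand) lies between Serpina9 and Serpina4-ps1. Serpina7 lies on chromosome X (139079257 to 139085236, minus strand) and is not part of this cluster. In liver libraries, 16 of the 28 had a mean of at least 25 counts.

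Upstream sequence was in the RefSeq promoter table (GRCm38.p6) for 4 of the 8 genes. Windows are shown for 2 genes lower in the HFD libraries of ZT 8, as described later, though neither difference passed the edgeR test. They are those of Serpina12, the gene that led to the choice, and of its near neighbour Serpina11. Each runs 5′ to 3′ on the gene's strand from 250 bases before the start of the transcript to 50 bases after it, and capitals mark matches to the motifs listed next. The Serpina12 window is chr12:104044394-104044693 and the Serpina11 window, one of 2 listed for that gene, is chr12:103989908-103990207, both on the minus strand.
Serpina12: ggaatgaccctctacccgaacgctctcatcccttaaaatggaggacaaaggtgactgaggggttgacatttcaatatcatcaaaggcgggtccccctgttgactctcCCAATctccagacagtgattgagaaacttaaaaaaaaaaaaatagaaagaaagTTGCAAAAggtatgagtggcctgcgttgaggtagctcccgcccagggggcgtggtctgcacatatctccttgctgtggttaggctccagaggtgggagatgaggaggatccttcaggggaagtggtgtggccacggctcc
Serpina11: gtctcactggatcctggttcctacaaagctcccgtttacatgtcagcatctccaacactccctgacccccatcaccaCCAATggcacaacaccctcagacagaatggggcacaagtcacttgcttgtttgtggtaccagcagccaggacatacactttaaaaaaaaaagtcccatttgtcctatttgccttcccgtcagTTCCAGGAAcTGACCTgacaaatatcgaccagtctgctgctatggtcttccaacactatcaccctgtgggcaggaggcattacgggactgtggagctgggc

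For comparison, 8 motifs were searched on both strands of these windows and of all 32851 promoter windows in the table. The CCAAT box (CCAAT, in 37.4% of all windows) was found in both, at position -143 of Serpina12 and -173 of Serpina11, counted from the start of the transcript. Serpina12 held a match to the C/EBP site (TTGCNNAA, 10.8%) at -90. Serpina11 held a STAT site (TTCNNNGAA, 8.3%) at -51 and, on the opposite strand, a nuclear receptor half-site (AGGTCA, 16.3%) at -41, and these matches did not overlap. Neither window held TATAAA (13.6%), CACGTG (7.15%), TGTTCT (19%), or TGTTTA (13.4%). A match describes the letters only, and no match was shared by both genes apart from the CCAAT box.

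The genes differed widely in level. Per kb of gene model, the median over the 32 liver libraries was 4973.6 CPM for Serpina3k, 224.5 for Serpina3m, 214.5 for Serpina6, 178.2 for Serpina3n, 56.5 for Serpina10, 25 for Serpina11, 5.54 for Serpina7, and 4.95 for Serpina12. Together the 8 genes took between 0.73% and 1.88% of all counts in a liver library (median, 1.19%), most of it Serpina3k. They took between 0.00516% and 0.043% in an adipocyte-rich library.

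**Figure D1:**
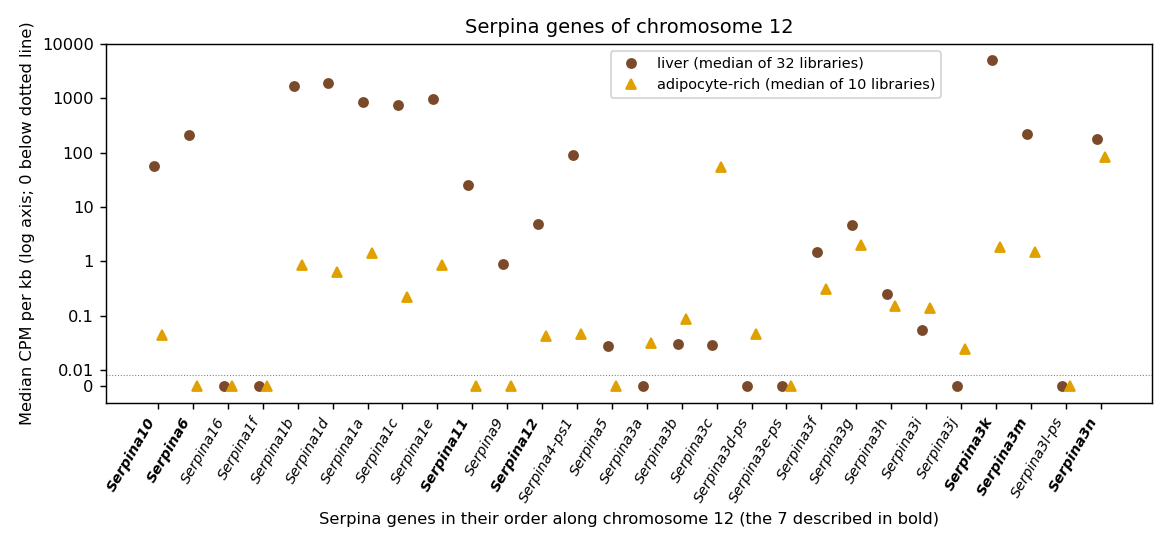
Median CPM per kb of gene model (log axis) of the 28 Serpina genes of chromosome 12, in their order along the chromosome, in 32 liver libraries (circles) and 10 adipocyte-rich libraries (triangles), with the 7 genes described here in bold. Serpina3k has the highest liver median (4973.6), Serpina12 has 4.95, and Serpina3c is high in the adipocyte-rich libraries alone.

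At ZT 0 Serpina12 was lower on the HFD, the difference that led to the choice. At this time it was at 47.5, 80.5, and 60.4 CPM in the AIN93G libraries and at 11.8, 7.82, and 7.56 CPM in the HFD libraries. Every HFD library was below every AIN93G library, and the means were 62.8 ± 16.7 and 9.07 ± 2.4 CPM (SD, n = 3). The fitted difference was -2.81 ± 0.21 (log2, SE), and the AIN93G mean was 6.92 times the HFD mean. The 7 other genes had log2 differences between -0.14 and 0.37. At ZT 0 the diets did not overlap for 2 of the 8 genes, Serpina12 and Serpina10, against 12.6% of all genes tested. Serpina10 was higher on the HFD, with means of 182.4 CPM on AIN93G and 197.7 CPM on the HFD.

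At ZT 8 the HFD libraries were again the lower ones. Serpina12 was at 32.9, 27.4, and 67.7 CPM on AIN93G and at 15.8, 8.94, and 5.53 CPM on the HFD. The groups did not overlap, and the log2 difference was -2.11 ± 0.46 (SE; 95% confidence interval, -3.15 to -1.06). With edgeR over 13394 genes the adjusted p was 0.609 (unadjusted p = 0.00135), so the difference did not pass the test. With DESeq2 it passed, at an adjusted p of 0.000252.

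At ZT 4 and ZT 12 the diets overlapped. At ZT 4, Serpina12 was at 21.1, 3.81, and 26.7 CPM on AIN93G and at 15.3, 18.4, and 15.4 CPM on the HFD, with a log2 difference of -0.12 ± 0.5 (SE). At ZT 12 it was at 18.1, 21.7, and 37.3 CPM on AIN93G and at 47.5, 36.1, and 17.2 CPM on the HFD, with a log2 difference of 0.41 ± 0.39 (SE). The difference at ZT 4 was 0.09 without AIN93G replicate 1 and 0.331 without AIN93G replicate 3, and its lowest refitted value was -0.599. The difference at ZT 12 was 0.078 without HFD replicate 1, 0.75 without AIN93G replicate 3, and 0.77 without HFD replicate 3. Over ZT 4, ZT 8, and ZT 12 together the log2 difference was -0.57 ± 0.41 (SE; 95% confidence interval, -1.44 to 0.3; edgeR adjusted p = 0.999), and it was 0.16 when ZT 8 was left out and -1.1 when ZT 12 was. It was -0.35 without AIN93G ZT 8 replicate 3 or without HFD ZT 8 replicate 3. The fitted differences of Serpina12 at these times did not all have the same sign, and the interaction of diet and time over them did not pass the test either (edgeR adjusted p = 0.835; unadjusted p = 0.0143).

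**Figure D2:**
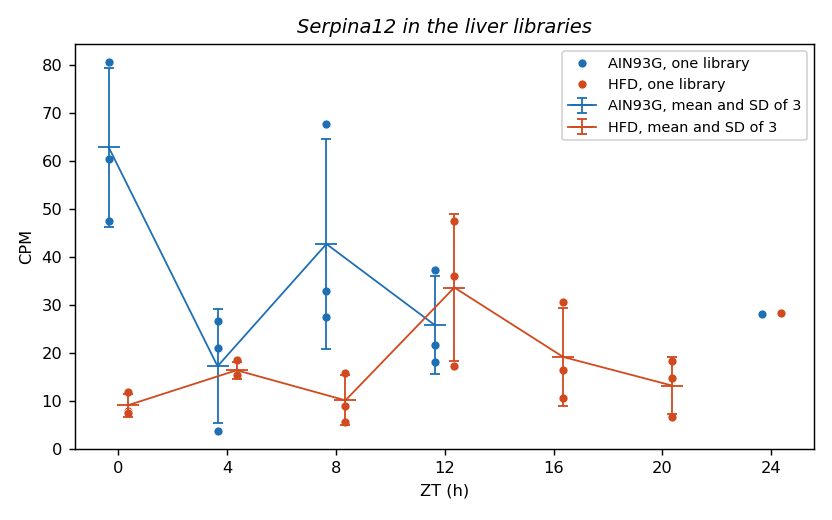
Serpina12 (CPM) against ZT in the 32 liver libraries, with 1 point per library, and with the mean and SD where all 3 libraries of a group were liver. The diets are apart at ZT 0 (means, 62.8 and 9.07 CPM) and at ZT 8, and they overlap at ZT 4 and ZT 12.

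Across the day in HFD livers, Serpina12 had its highest mean at ZT 12 (33.6 ± 15.3 CPM), followed by ZT 16 (19.1 ± 10.3), ZT 4 (16.4 ± 1.76), ZT 20 (13.2 ± 5.98), ZT 8 (10.1 ± 5.24), and ZT 0 (9.07 ± 2.4; SD, n = 3 each). No neighbours in this order were free of overlap. The fitted means spanned 2.02 (log2), and time did not pass the test with edgeR (adjusted p = 0.0766), while with DESeq2 it did (adjusted p = 0.0173). The edgeR call moved with 1 library. The edgeR adjusted p was 0.0163 without HFD ZT 12 replicate 3, the lowest of its group. This is the 1 HFD library of ZT 12 that the labels put in the light phase, and it was low for Thrsp too, a lipogenic gene (254.4 CPM, against 1705.2 and 2286.2 CPM in replicates 1 and 2). The AIN93G library of ZT 12 with a light label, replicate 2, lay between the others of its group for both genes. It was at 21.7 CPM for Serpina12, against 18.1 and 37.3 CPM, and at 912 CPM for Thrsp, against 1113.8 and 621.9 CPM. The part of the phase label in the result was not tested. The edgeR adjusted p of Serpina12 was 0.174 without ZT 0, the time used in the choice.

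In AIN93G livers the order was another one. The mean was highest at ZT 0 (62.8 CPM), followed by ZT 8 (42.7 ± 21.9), ZT 12 (25.7 ± 10.2), and ZT 4 (17.2 ± 11.9), again with overlap between all neighbours. At ZT 24, a single liver library per diet was at 28 CPM on AIN93G and 28.2 CPM on the HFD.

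Within the liver groups Serpina12 varied strongly between mice. The SD of log2 CPM within the 10 groups made of liver libraries only was 0.73, above that of 97.1% of 12000 genes, whose median was 0.259. Serpina7 varied more (0.91, 98.6%), and Serpina10 was among the steadiest genes of the liver (0.11, 1.35%). Serpina3m (0.157, 10.7%) was steady too, Serpina6 (0.464, 89.3%) and Serpina3k (0.421, 85.2%) were variable, and Serpina11 (0.299, 62.4%) and Serpina3n (0.263, 51.3%) were near the middle.

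Over the 32 liver libraries, Fabp5, a fatty acid-binding protein, had the pattern closest to that of Serpina12 (Pearson's r of log2 CPM, 0.79). Next were 4 genes of ribosomal proteins, Rpl3, Rps12, and Rpl6 (0.74 each) and Rps4x (0.71). Among the lowest correlations were those of Neto2 (-0.73) and Aldh6a1 (-0.7), an enzyme of valine catabolism. These values are descriptions over libraries that share diets and times. For Fabp5 the r was 0.78 in 13 AIN93G libraries, 0.69 in 19 HFD libraries, and 0.83 in the 26 libraries left without ZT 0.

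At ZT 8, Fabp5 was at 267.7, 92.6, and 201.7 CPM on AIN93G and at 38.4, 23.1, and 14.2 CPM on the HFD. Like Serpina12, it did not overlap between the diets at that time, and at ZT 0 it was also lower in each HFD library (20.2, 71.6, and 108.9 CPM) than in each AIN93G library (277.5, 224, and 273.7 CPM). The diets did not overlap for 12.6% of all genes tested at ZT 0 and for 12.6% at ZT 8. Fabp5 was picked for its r with Serpina12 over libraries that include these, so a like pattern follows in part from the choice. Both genes overlapped at ZT 12, where Fabp5 was at 48, 101.2, and 197.9 CPM on AIN93G and at 150.2, 173.5, and 104.6 CPM on the HFD.

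Along the cluster, the r with Serpina12 over the liver libraries was between -0.21 and 0.59 for the other genes with a mean of at least 25 counts. It was 0.59 for Serpina4-ps1 and 0.49 for Serpina9, the genes on either side, and 0.44 for Serpina11, which follows Serpina9. Beyond Serpina11 it was 0.18 for Serpina1e, 0.44 for Serpina1c, 0.13 for Serpina1a, 0.19 for Serpina1d, 0.11 for Serpina1b, -0.2 for Serpina6, and 0.15 for Serpina10. Beyond Serpina4-ps1 it was -0.12 for Serpina3f, -0.02 for Serpina3g, 0.43 for Serpina3k, 0.13 for Serpina3m, and -0.21 for Serpina3n, so the values did not simply fall with distance. Without the ZT 0 libraries used in the choice it was 0.68 for Serpina4-ps1, 0.53 for Serpina9, 0.54 for Serpina11 and for Serpina3k, 0.55 for Serpina1c, 0.4 for Serpina1a, 0.36 for Serpina10, 0.33 for Serpina1e, and between -0.14 and 0.14 for the others. Among the 8 genes, the highest r was that of Serpina11 and Serpina3k (0.64) and the lowest was that of Serpina6 and Serpina3k (-0.55).

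The carrier genes Serpina6 and Serpina7 are described next. Serpina6 was the one gene of the 8 that passed the test of time in HFD livers (edgeR adjusted p = 0.023), that is 1 of 8, against 307 of 13394 genes or 2.29% in the background. There, 3 of the 8 genes (Serpina6, Serpina7, and Serpina12) had an unadjusted p under 0.05, against 2686 genes or 20.1% of all, and DESeq2 called those 3, with 1507 genes in all. The median range over time was 0.77 (log2) for the 8 genes and 0.55 for all genes tested.

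Serpina6 peaked at ZT 8 in HFD livers. The 3 libraries of ZT 0 were at 272.8, 180.4, and 267.6 CPM, those of ZT 4 were at 226.8, 461.4, and 313.8 CPM, and those of ZT 8 were at 577.9, 772.7, and 753.7 CPM. Later the level was lower again, with 477, 526.1, and 383.8 CPM at ZT 12, 536.6, 497.2, and 267 CPM at ZT 16, and 372.9, 294.6, and 239.8 CPM at ZT 20. The 3 libraries of ZT 8 were above all other HFD libraries of ZT 0 to ZT 20, and the fitted means spanned 1.62 (log2). A 24 h cosine fitted to these libraries peaked at ZT 10.6 with a peak-to-trough difference of 1.36 (log2; edgeR adjusted p = 0.0081), and Serpina6 was the 1 of 8 genes called by it, against 7.34% of all genes.

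The call of Serpina6 was not secure. Its edgeR adjusted p was 0.0582 without HFD ZT 8 replicate 2, 0.0663 without HFD ZT 8 replicate 3, 0.0567 without HFD ZT 0 replicate 2, and 0.0982 without ZT 0. In AIN93G livers the mean was lowest at ZT 0 (234.7 ± 129 CPM), followed by ZT 4 (381.6 ± 116), ZT 12 (416.6 ± 167), and ZT 8 (447.5 ± 151; SD, n = 3 each), with overlap between all neighbours. At ZT 8, AIN93G libraries were at 333.6, 390, and 619 CPM, and the log2 difference on the HFD was 0.61 ± 0.25 (SE; edgeR adjusted p = 0.713; unadjusted p = 0.0355), with the highest AIN93G library above the lowest HFD library. Without that AIN93G library, replicate 3, the log2 difference was 0.95 (edgeR adjusted p = 0.372). Over ZT 4, ZT 8, and ZT 12 the log2 difference was 0.18 ± 0.2 (SE; edgeR adjusted p = 0.999). It was 0.095 without AIN93G ZT 8 replicate 1, 0.11 without AIN93G ZT 8 replicate 2 or AIN93G ZT 12 replicate 3, 0.27 without HFD ZT 4 replicate 1, 0.31 without AIN93G ZT 12 replicate 1, 0.38 without ZT 4, and -0.039 without ZT 8.

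**Figure D3:**
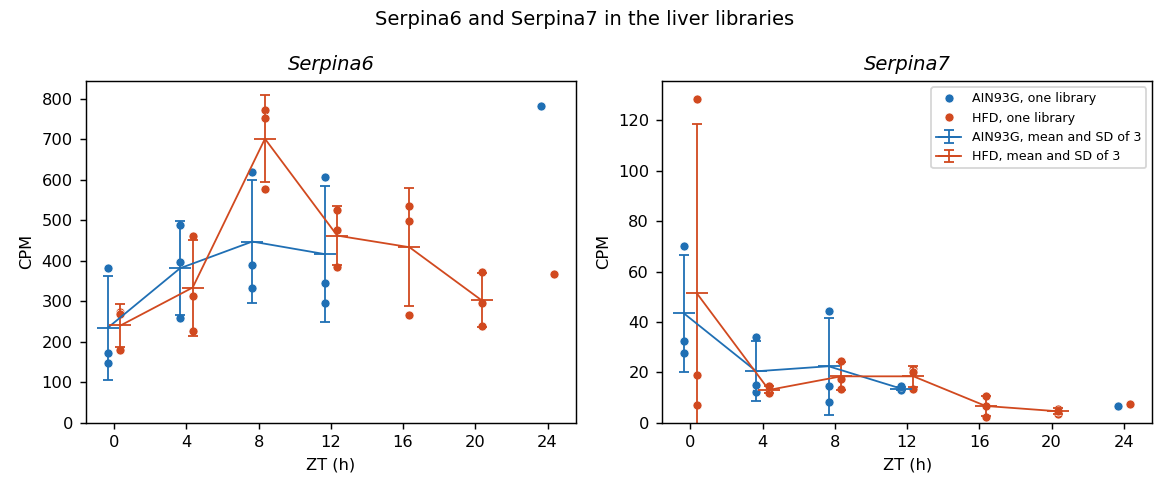
Serpina6 (left) and Serpina7 (right) in CPM against ZT in the liver libraries, with 1 point per library and with the mean and SD where all 3 libraries of a group were liver; axes start at 0, which hides the lower end of 1 SD bar of Serpina7. Serpina6 is highest at ZT 8 on the HFD (mean, 701.4 CPM), and 1 HFD library sets the Serpina7 mean at ZT 0.

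Over the 32 liver libraries, the genes closest to Serpina6 were Cyp2a5, a cytochrome P450 (r = 0.89; 64.9 to 2014.8 CPM), and Upp2, a uridine phosphorylase (r = 0.81; 46.1 to 1395 CPM). For Serpina7 they were Zwint (0.69) and Cers4 (0.68), a ceramide synthase.

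Serpina7 was low late in the day in HFD livers. It was at 19, 6.97, and 128.4 CPM at ZT 0, between 11.7 and 14.5 CPM at ZT 4, between 13.5 and 24.4 CPM at ZT 8, and between 13.6 and 21.4 CPM at ZT 12. It was at 10.7, 6.85, and 2.47 CPM at ZT 16 and at 5.63, 3.36, and 4.71 CPM at ZT 20. Every library of ZT 16 and ZT 20 was below every library of ZT 4, ZT 8, and ZT 12. The ZT 0 libraries overlapped both sets, with replicate 3 the highest of all HFD livers.

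The fitted means of Serpina7 spanned 3.42 (log2), and the edgeR adjusted p for time was 0.0547, just above the threshold. It was 0.0354 without ZT 0, and 8 of 25 other fits passed. In AIN93G livers Serpina7 was at 70, 27.5, and 32.6 CPM at ZT 0 and at 13.4, 13, and 14.4 CPM at ZT 12, which did not overlap. Time did not pass the test for any of the 8 genes in AIN93G livers with edgeR (0 of 8 genes, and 0 of 13394 or 0% of all genes). There Serpina12 alone had an unadjusted p under 0.05 (0.0316), against 1286 genes or 9.6% of all, and DESeq2 called 259 genes but 0 of the 8. That fit holds the ZT 0 libraries used in the choice, and the edgeR adjusted p of Serpina12 was 0.463 with them and 0.93 without them.

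The diets were next compared at ZT 4, ZT 8, and ZT 12, which the choice did not use. None of the 8 genes passed the edgeR test over ZT 4, ZT 8, and ZT 12 (0 of 8, and 0% of all genes), and 0 of the 8 had an unadjusted p under 0.05 (617 of all genes). DESeq2 called 0 of the 8 and 10 genes in all. The median log2 difference of the 8 genes was -0.04, and that of all genes tested was -0.01. Serpina3n had a difference of 0.16 ± 0.13 (SE; 95% confidence interval, -0.104 to 0.42; edgeR adjusted p = 0.999), and the intervals of all 8 genes included 0. The difference of Serpina3n was 0.25 without AIN93G ZT 12 replicate 1 and 0.105 without AIN93G ZT 12 replicate 3.

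By single time, edgeR called 0 of the 8 genes at ZT 4 (0% of all genes), 0 at ZT 8 (0% of all genes), and 0 at ZT 12 (0% of all genes). An unadjusted p under 0.05 was found for 0, 4, and 0 of the 8 genes, and for 462, 909, and 554 of all genes. DESeq2 called 0, 1, and 0 of the 8 genes, and 26, 60, and 5 of all genes. The interaction of diet and time was called by edgeR for 0 of the 8 genes (0% of all genes), with an unadjusted p under 0.05 for 3 of them and for 772 of all genes. Those 3 were Serpina12, Serpina11, and Serpina3k.

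At ZT 8 the diets did not overlap for 3 of the 8 genes, Serpina12, Serpina11, and Serpina3k, against 12.6% of all genes. Serpina11 was at 51, 46.3, and 45.5 CPM on AIN93G and at 40.1, 32.5, and 28.6 CPM on the HFD, a log2 difference of -0.52 ± 0.18 (SE; edgeR adjusted p = 0.713; unadjusted p = 0.0192). Serpina3k was at 13348.7, 11676.4, and 10255.7 CPM on AIN93G and at 8573.4, 5476.7, and 6823.8 CPM on the HFD, a log2 difference of -0.77 ± 0.23 (SE; edgeR adjusted p = 0.713; unadjusted p = 0.00777). All 3 genes were lower on the HFD, and none of these differences passed the edgeR test. At ZT 4 the diets did not overlap for 1 of the 8, Serpina3m (7.8% of all genes), and at ZT 12 for 1, Serpina10 (9.44% of all genes).

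At ZT 12 both genes had lost this order. Serpina11 was at 39.2, 35.3, and 30.1 CPM on AIN93G and at 67.4, 38.8, and 47.7 CPM on the HFD. Serpina3k was at 11550.4, 8707.3, and 8937.6 CPM on AIN93G and at 15301.8, 13373.5, and 9304.7 CPM on the HFD. The HFD libraries were mostly the higher ones there, with overlap in both genes.

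The pattern closest to that of Serpina11 over the liver libraries was that of Apoa1, the main apolipoprotein of HDL (r = 0.88), followed by the esterase gene Ces4a (0.77). For Serpina3k it was C8b, a subunit of the complement membrane attack complex (0.88), followed by Ces4a (0.84). For Serpina3m it was Zfand4 (0.83) and Ces1d (0.75), for Serpina3n it was Plekhg5 (0.82) and Lims2 (0.8), and for Serpina10 it was Mup16 (0.7) and 3110082I17Rik (0.68).

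Other genes of the family and of related pathways were taken from lists written by hand. Of the 17 other clade A serpins, 9 were tested, of which Serpina3c passed the filter through the adipocyte-rich libraries alone, and 0 passed the edgeR test of the diets at ZT 4, ZT 8, or ZT 12 or over the 3 times. At ZT 8, 3 of them had an unadjusted p under 0.05, against 6.79% of all genes, and are named after their values were seen. The log2 difference was -2.66 ± 0.57 for Serpina9, -1.75 ± 0.58 for Serpina1e, and -0.68 ± 0.23 for Serpina1c (SE), none of which passed the test, and DESeq2 values were not taken for them. Serpina1e overlapped between the diets, at 3483, 766.7, and 2562.6 CPM on AIN93G and at 945.5, 851.5, and 281.3 CPM on the HFD.

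Serpina9, which lies beside Serpina12, was at 10.8, 18, and 5.29 CPM on AIN93G and at 1.19, 0.829, and 3.37 CPM on the HFD at ZT 8. Serpina4-ps1, a pseudogene on the other side of Serpina12 and not on the list, was at 303.3, 551.3, and 129 CPM on AIN93G and at 19.5, 14, and 30.6 CPM on the HFD. Neither overlapped between the diets. At ZT 12 Serpina4-ps1 overlapped, with 221.3, 82.8, and 95 CPM on AIN93G and 819.2, 587.6, and 123 CPM on the HFD. Serpina9 was then higher on the HFD without overlap, at 2.16, 1.35, and 1.93 CPM on AIN93G and at 16.7, 4.6, and 3.84 CPM on the HFD. Its log2 difference at ZT 12 was 2.2 ± 0.61 (SE; edgeR adjusted p = 0.937; unadjusted p = 0.00713), opposite in sign to that at ZT 8, and it did not pass the test.

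Of 14 serpins of other clades 13 were tested, of 16 genes of hormone carriage and hormone response 16, of 9 serpin partners such as protein Z 6 (not kallikrein 7, which was under the filter), and of 13 acute phase genes 13. In none of these lists did a gene pass the edgeR test of the diets at ZT 4, ZT 8, or ZT 12 or over the 3 times. Time in HFD livers was called for 1 carrier or response gene, Thrsp, which thyroid hormone induces (edgeR adjusted p = 0.013), and for 1 other serpin, the granzyme B inhibitor gene Serpinb9 (edgeR adjusted p = 0.0434), both named after their values were seen, against 2.29% of all genes. In AIN93G livers 0 genes of the lists were called, against 0% of all genes. The acute phase genes had a median log2 difference of 0.09 over ZT 4, ZT 8, and ZT 12. An unadjusted p under 0.05 was found for 5 of the 13, against 4.61% of all genes, with Saa1 (0.68) and Saa3 (0.63) higher on the HFD and Orm1 (-0.48), Orm2 (-0.65), and Fgb (-0.28) lower, all named after their values were seen.

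Presence in the adipocyte-rich libraries separated the 8 genes. In 7 of the 8, every one of the 10 adipocyte-rich libraries was below every one of the 32 liver libraries, which held for 10.1% of all genes tested. Serpina3n was the exception, with 43.9 to 413.7 CPM (median, 175.1) in the adipocyte-rich and 237 to 494.2 CPM (median, 367.8) in the liver libraries. Its ratio of medians was 2.1, while that of Serpina3k was 2716.9.

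Serpina11 had 0 counts in all 10 adipocyte-rich libraries, which allows up to 3 counts in each. Serpina7 had 0 counts in 9 of them and 1 count in the other, and Serpina6 had at most 3 counts in each. Serpina3k was between 1.99 and 8.97 CPM and Serpina3m between 0.416 and 10.3 CPM. Their liver ranges were 5476.7 to 17377.6 CPM and 303.5 to 496.1 CPM.

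Serpina12, named for visceral adipose tissue, was nearly absent from these libraries. It was between 0 and 0.421 CPM, with at most 9 counts, and 7 of the 10 libraries were at or under the floor. The lowest liver library was at 3.81 CPM. The labels do not say which fat depot, if any, was sampled.

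**Figure D4:**
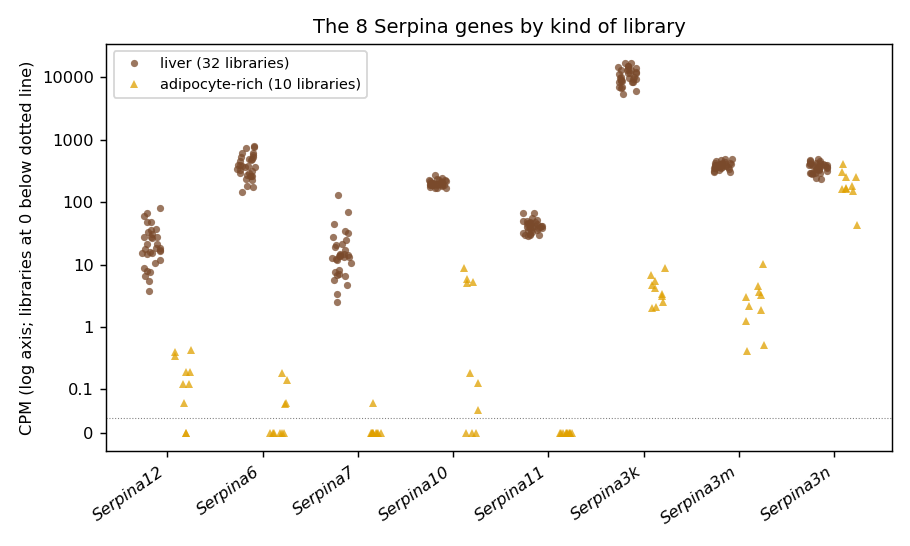
CPM (log axis, with libraries at 0 placed below the dotted line) of the 8 genes in 32 liver libraries (circles) and 10 adipocyte-rich libraries (triangles), 1 point per library. Serpina3n alone overlaps between the 2 kinds, and Serpina11 is at 0 in all 10 adipocyte-rich libraries.

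Serpina10 was present in only some adipocyte-rich libraries. It had 142 counts (8.84 CPM) in AIN93G ZT 16 replicate 1, 87 counts (5.15 CPM) in AIN93G ZT 16 replicate 3, 86 counts (5.21 CPM) in AIN93G ZT 20 replicate 3, and 98 counts (5.83 CPM) in HFD ZT 24 replicate 1. It had at most 3 counts in the 6 others. The same 4 libraries had a summed level of 5 lymphocyte markers of 1142.2, 422.6, 206.7, and 599.7 CPM, against 0.615 to 2.76 CPM in the 6 others. Glycam1, a gene of lymph node vessels, was at 663.2, 202.5, 108.3, and 309 CPM in those 4 and at most 0.191 CPM in the 6 others.

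The Alb level of those 4 libraries, between 19.7 and 62.9 CPM, lay within that of the 6 others (18.7 to 81 CPM). Serpina3g was between 9.7 and 33.8 CPM in the 4 and between 0.745 and 4.85 CPM in the 6, and Serpina1e was between 4.5 and 17.9 CPM against 0.123 to 1.53 CPM. Serpina6, Serpina7, and Serpina11 were at or under the floor in all 4. The part of lymphoid tissue in the Serpina10 counts was not tested. Fibroblast markers, summed over 6 genes, were between 3871.5 and 10045.8 CPM in the 10 libraries, and macrophage markers, summed over 5 genes, between 266.7 and 1120.9 CPM. Mammary epithelium markers, summed over 5 genes, were between 64 and 934.3 CPM in them and between 190.3 and 361.2 CPM in the liver libraries. Of these 5 genes, 4 had a higher median in the adipocyte-rich libraries.

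**Figure D5:**
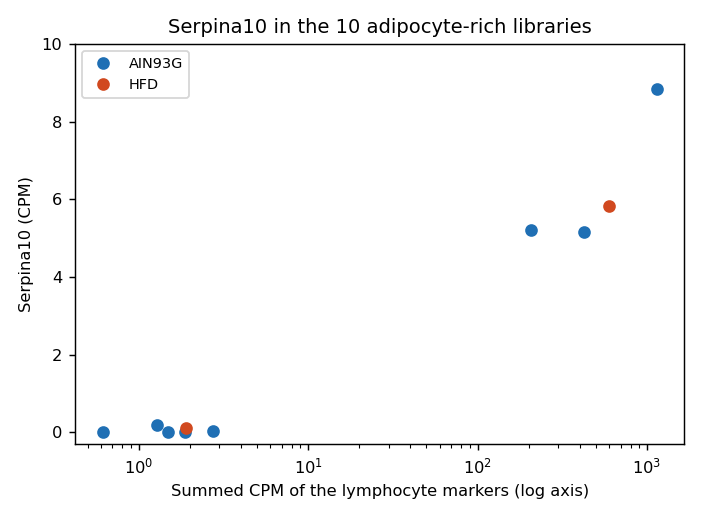
Serpina10 (CPM) against the summed CPM of 5 lymphocyte markers (log axis) in the 10 adipocyte-rich libraries, 1 point per library, coloured by diet. Of the 10, 4 have both a marker sum of at least 206.7 CPM and Serpina10 at or above 5.15 CPM.

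Another gene of the cluster went the other way. Serpina3c, a non-member named for its level in the adipocyte-rich libraries, was between 88.5 and 153.5 CPM in them and between 0 and 2.57 CPM in the liver libraries. Of the 17 other clade A serpins, 1 was above the liver range in all adipocyte-rich libraries, 6 were below it, and 10 overlapped. Only 9 of the 17 were tested, and all that were not are among the 10, at 1.66 CPM or less in every library. Among all genes tested, 33.7% were above and 10.1% were below in the same way.

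At ZT 16 and ZT 20 the labels compare HFD liver libraries with AIN93G libraries that were all adipocyte-rich. With edgeR, 8 of 8 genes were called higher on the HFD at ZT 16 (7464 genes or 55.7% of all genes called) and at ZT 20 (7847 genes or 58.6% of all genes called). The diets did not overlap for 7 of the 8 genes at each time, against 80.1% of all genes at ZT 16 and 76% at ZT 20. Against the floor, Serpina6 was at least 2370-fold higher in the HFD libraries at ZT 16 and at least 1835-fold at ZT 20, Serpina11 at least 257-fold and 248-fold, and Serpina7 at least 36-fold and 27-fold. Serpina12 was at least 104-fold higher at ZT 16, and at ZT 20 its mean was 44.7 times the AIN93G mean, which rests on 1 to 9 counts.

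Serpina3n had the smallest difference of the 8 genes at these times. Its HFD mean was 1.82 times the AIN93G mean at ZT 16 (log2 difference, 1.71 ± 0.34, SE; edgeR adjusted p = 0.00408) and 1.25 times at ZT 20 (0.94 ± 0.31; edgeR adjusted p = 0.0293). The call at ZT 20 was lost without AIN93G replicate 2 or 3 (edgeR adjusted p = 0.0761 and 0.0533) and without HFD replicate 2 or 3 (0.0605 and 0.101). The log2 differences rest on TMM scaling, whereas the ratios of CPM do not. Without TMM, the median over the genes tested moved from -0.01 to -0.86 at ZT 16 and from -0.04 to -0.67 at ZT 20, and the difference of Serpina3n was 0.86 (edgeR adjusted p = 0.0415) and 0.31 (0.359).

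Several of these genes share sequence, which bears on their counts. Serpina3k (chromosome 12, 104338486 to 104346144) lies within the annotated span of Serpina3m (104338486 to 104394257) on the same strand. Their exons share 60 bases, 2.92% of those of Serpina3k and 3.49% of those of Serpina3m. The coding sequences of the pair were 91.8% identical. Serpina3m and Serpina3n were 85.2% identical, Serpina3k and Serpina3n 83.4%, and every other pair of the 8 genes had at most 63.9%. Of all stretches of 50 bases in the GENCODE M21 transcripts of a gene, 14% of those of Serpina3k, 19.1% of those of Serpina3m, and 6.9% of those of Serpina3n also occur in a transcript of another gene. The share was higher for Serpina11 (35.7%, all with 1 gene, Gm28577) and was 1.47% for Serpina10. The counts of Serpina11 and of the 3 copies are therefore less certain than those of Serpina12, Serpina6, and Serpina7, for which that share was 0%.

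Serpina11 shares 669 of its 1638 exonic bases (40.8%) with exons of the overlapping gene Gm28577, which had 0 counts in all 42 libraries. How reads in the shared exons were counted is not given in the sources used here, and this bears on the levels of Serpina11 and on its 0 counts in the adipocyte-rich libraries. The coding stretch where Serpina3k, Serpina3m, and Serpina3n differ most is shown because reads from it can tell the 3 genes apart. It spans 60 bases of exon 2, at chr12:104340580-104340639 in Serpina3k, chr12:104389142-104389201 in Serpina3m, and chr12:104408737-104408796 in Serpina3n (mm10, plus strand). Capitals mark bases that neither of the others has at that position, and 37 of the 60 bases are identical in all 3.
Serpina3k: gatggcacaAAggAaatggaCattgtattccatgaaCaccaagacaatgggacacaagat
Serpina3m: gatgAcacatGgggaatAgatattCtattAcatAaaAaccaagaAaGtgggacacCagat
Serpina3n: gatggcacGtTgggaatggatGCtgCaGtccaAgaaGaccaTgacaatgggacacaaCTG

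Even so, the 3 copies had unlike profiles in liver. Over the 32 libraries the r was -0.02 for Serpina3k and Serpina3m, 0.06 for Serpina3m and Serpina3n, and 0.21 for Serpina3k and Serpina3n. Serpina3k ranged from 5476.7 to 17377.6 CPM, while Serpina3m and Serpina3n stayed within 303.5 to 496.1 CPM and 237 to 494.2 CPM.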

How the data were processed

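The 42 libraries came from 3 mice per diet and time point, and their groups were taken from the sample records. The authors deposited 1 table of raw read counts per gene (unit count, not normalized). The submitters' processing notes name fastp, STAR, HTSeq 0.6.1, and mm10, without their order, and the strand setting is not given in the sources used here. Replicates differed by more than counting noise in all 42 pairs (the smallest chi-square over its degrees of freedom was 14.5).

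R 4.3.3 was used with edgeR 4.0.16 and DESeq2 1.42.0. Counts were scaled by TMM in edgeR and tested by quasi-likelihood, separately for each comparison and for genes averaging 25 counts or more per library, at a Benjamini-Hochberg adjusted p under 0.05 over all genes tested. Unless DESeq2 is named, adjusted p-values are from edgeR. Printed CPM are counts per 1000000 counts of the library, and correlations used log2(CPM + 0.5). The edgeR fits were tested on simulated data. Each mouse gave 1 library, and intervals and floors cover the spread or the counting error only.

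The 8 genes, the gene lists, and the marker lists were chosen with earlier results of these data known. Named genes are the 8, list members called or singled out by their level, and genes of highest or lowest correlation, of which 1 is not reported here. Alternatives were DESeq2, library size alone, other filters, leaving out libraries or times, and 1 fit of ZT 0 to ZT 12. Leaving out ZT 0 and the interaction were added after values had been seen. Sequences were read from RefSeq (GRCm38.p6) and GENCODE M21 (mm10).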

Additional observations from a re-analysis of the deposited data

How the results depend on the processing

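Of the 648 refitted values of single genes, 618 kept their direction and their side of the threshold, 9 lost and 17 gained a call, and 4 turned direction. The 4 were Serpina12 at ZT 4 (0.09 to 0.331 on the log2 scale without AIN93G replicate 1 or 3; -0.599 to 0.331 over all leave-one-out fits) and, without ZT 8, Serpina12 (0.16) and Serpina6 (-0.039) over ZT 4, ZT 8, and ZT 12. Of the 8 genes, edgeR without a filter on low counts called 1 at ZT 4 (182 of 25452 genes), 1 at ZT 8 (252 of 25456), 5 over time in HFD livers, and 2 over time in AIN93G livers (705 of 27769). In that fit of HFD livers 2333 of 28586 genes were called, against 307 of 13394, and the prior degrees of freedom were infinite instead of 5.61. DESeq2 called 1 of the 8 at ZT 8 and 3 over time in HFD livers, where library size alone gave 2, leaving out ZT 12 gave 2, and leaving out 1 library gave 0 to 3. At ZT 20 the count was 7 or 8 in all fits, and at ZT 16 it was 8. For DESeq2 and library size alone the cause was not tested. The filter over the fitted libraries and the single fit of ZT 0 to ZT 12 changed no count of calls among the 8.

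With 3 mice per group, the interval of Serpina12 over ZT 4, ZT 8, and ZT 12 spans more than 1.5 on the log2 scale, and at ZT 16 and ZT 20 no diet effect on liver can be read. No paired analysis was possible because the replicate numbers were given in the order of the records and pair no libraries. Some library names share their first part across times (7 of 18 libraries in the HFD time test, 6 of 12 in the AIN93G one), what this marks is not stated, and its part in these tests was not tested.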
